A study of Mus musculus with 4 samples.

Results

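IRF2 is an interferon regulatory factor, a DNA-binding protein that acts at interferon-responsive genes. Its chromatin occupancy was mapped by immunoprecipitation and sequencing (ChIP-seq) in Lgr5-positive intestinal stem cells of the mouse small intestine, and is described here at 9 of the 21887 protein-coding genes: Hes1, Msi2, Erbb4, Tcf7l2, Bmp8b, Lgr5, Olfm4, Ascl2 and Atoh1. All samples came from the Lgr5-EGFP-Ires-CreERT2 strain, in which a reporter and an inducible recombinase sit at the Lgr5 locus, so Lgr5 itself is altered in these animals. No treatment, age, time or number of altered Lgr5 copies is labelled. The series holds 4 samples, namely 2 IRF2 immunoprecipitates and 2 inputs that were not analysed here. The design text names 5 mice without dividing them among libraries, so nothing states whether the libraries are of separate animals. The IRF2 library with Takara in its title is called replicate 1 and that with Tokyo replicate 2. The track names in the file headers number them the other way round. A peak list carries no expression, so the labelled cell type could not be checked against marker levels.

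The 9 genes were chosen by name from stem cell, Notch, Wnt and growth-signal biology, with earlier results of these peak lists known. Peak position, distance, score, rank and overlap count as the measures that chose them, and are given as a description with no test. A gene was counted where the midpoint of a peak lay inside it or within 50 kb of either end.

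Intestinal crypts hold Lgr5-positive stem cells at their base, which divide and feed either absorptive or secretory progeny. Wnt signals keep the stem cells in place: TCF7L2 is the main DNA-binding partner of beta-catenin in this epithelium, LGR5 is a receptor for R-spondins that raises Wnt signalling, and ASCL2 is a Wnt-driven transcription factor of the stem cell state. Notch signals act through the repressor HES1, which holds down ATOH1, the factor that starts the secretory programme. OLFM4 is a secreted glycoprotein used as a stem cell marker. MSI2 is an RNA-binding protein of stem and progenitor cells, ERBB4 a receptor of the epidermal growth factor family that binds neuregulins, and BMP8B a ligand of the bone morphogenetic protein family, whose signals oppose stem cell renewal in the crypt.

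No genome sequence of the build was used, so the bases under the distal peaks are not shown. RefSeq promoter windows (GRCm38.p6, the assembly of mm10), each from 250 bases before to 50 after an annotated start, were found for 7 of the 9 genes, 10 windows in all. Hes1 and Lgr5 were not matched. Each run below gives the 250 bases before a start, 5′ to 3′ on the gene's strand, with every GAAA or its reverse complement TTTC in capitals, since this 4-base half-site is the core that IRF proteins contact. The first sequence, which begins inside the annotated extent of its gene because an earlier end is listed, is shown for the gene next to the highest IRF2 peak of replicate 1 (Bmp8b, plus strand, chr4:123104911-123105160). The second belongs to the one gene of the 9 with a peak under 5 kb from a start (Tcf7l2, first window, plus strand, chr19:55741560-55741809). The last pair are the windows with the closest approach to an IRF motif (Erbb4, minus strand, chr1:69108060-69108309, and Atoh1, plus strand, chr6:64728875-64729124).
Bmp8b: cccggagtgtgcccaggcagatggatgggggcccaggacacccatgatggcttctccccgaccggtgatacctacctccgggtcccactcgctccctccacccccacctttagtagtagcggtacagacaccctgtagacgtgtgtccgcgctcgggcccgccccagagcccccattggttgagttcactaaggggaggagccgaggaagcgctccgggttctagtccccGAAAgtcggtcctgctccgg
Tcf7l2: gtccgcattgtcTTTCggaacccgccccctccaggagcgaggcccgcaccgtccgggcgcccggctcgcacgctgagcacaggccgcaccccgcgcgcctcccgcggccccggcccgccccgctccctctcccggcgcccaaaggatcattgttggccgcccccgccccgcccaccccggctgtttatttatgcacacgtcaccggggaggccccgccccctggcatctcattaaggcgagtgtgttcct
Erbb4: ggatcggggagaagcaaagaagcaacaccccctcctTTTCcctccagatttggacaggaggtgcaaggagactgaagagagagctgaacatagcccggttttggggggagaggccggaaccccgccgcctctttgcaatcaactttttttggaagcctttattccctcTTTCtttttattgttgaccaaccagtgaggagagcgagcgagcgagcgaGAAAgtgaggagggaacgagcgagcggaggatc
Atoh1: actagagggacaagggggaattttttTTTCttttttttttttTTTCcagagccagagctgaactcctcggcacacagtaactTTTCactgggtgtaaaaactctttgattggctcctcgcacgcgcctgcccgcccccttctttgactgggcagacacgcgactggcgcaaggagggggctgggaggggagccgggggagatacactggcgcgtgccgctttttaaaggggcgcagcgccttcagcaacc

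None of the 10 windows held the IRF motif GAAANNGAAA, a pair of half-sites 2 bases apart, on either strand. A count of 0 of 10 allows a share of up to 30%, and windows of 1 gene can overlap. The motif was present in 1131 of 32851 promoter windows (3.44%). For comparison, it was present in 23 of 73 windows under a replicate 1 peak (31.5%, 95% Wilson interval 22 to 42.9), in 10 of 86 under a replicate 2 peak (11.6%, 6.44 to 20.1) and in 9 of 26 under a region found in both libraries (34.6%, 19.4 to 53.8). The shorter motif AANNGAAA, which every full match also contains, was found in 7857 of all windows (23.9%) and in 2 of the 10. Both matches read TTTCTTTT on the printed strand, beginning 82 bases before the Erbb4 start and 224 bases before the Atoh1 start, in the T-rich stretches visible above. The printed Bmp8b and Tcf7l2 runs held 1 half-site each, against 3 each for Erbb4 and Atoh1. Among the windows not printed, the second of Tcf7l2 held 5, the most of the 10, and that of Olfm4 held 3. For comparison, the median per promoter window was 3 half-sites over all windows and 1 over these 10. No window of the 9 genes lay under a peak of either library.

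A replicate 1 peak lay in or near 5 of the 9 genes, against a background of 3.36% of all protein-coding genes (736 of 21887). A replicate 2 peak lay in or near 4 of the 9, against 2.72% (596). For 4 of the 9 (Hes1, Msi2, Erbb4 and Bmp8b) both libraries had a peak, against 0.717% (157), and at the same 4 the peaks of the libraries overlapped in a shared region, against 0.644% (141). With a reciprocal overlap of 50%, shared regions were left at 2 of the 4, Hes1 and Msi2. With a window of 5 kb, 3 genes had a replicate 1 peak and 2 a replicate 2 peak and a shared region, without Hes1 and Bmp8b. The genes were chosen with these calls known, so nothing is read from the difference. In all, 9 of the 380 replicate 1 peaks and 5 of the 238 replicate 2 peaks belonged to these genes. Erbb4 and Msi2 are very long, and of the 390 genes at least as long as Msi2, 7.95% had a replicate 1 and 3.33% a replicate 2 peak. Read depth is unknown, so where a list shows none, binding too weak to be called may still exist.

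**Figure D1:**
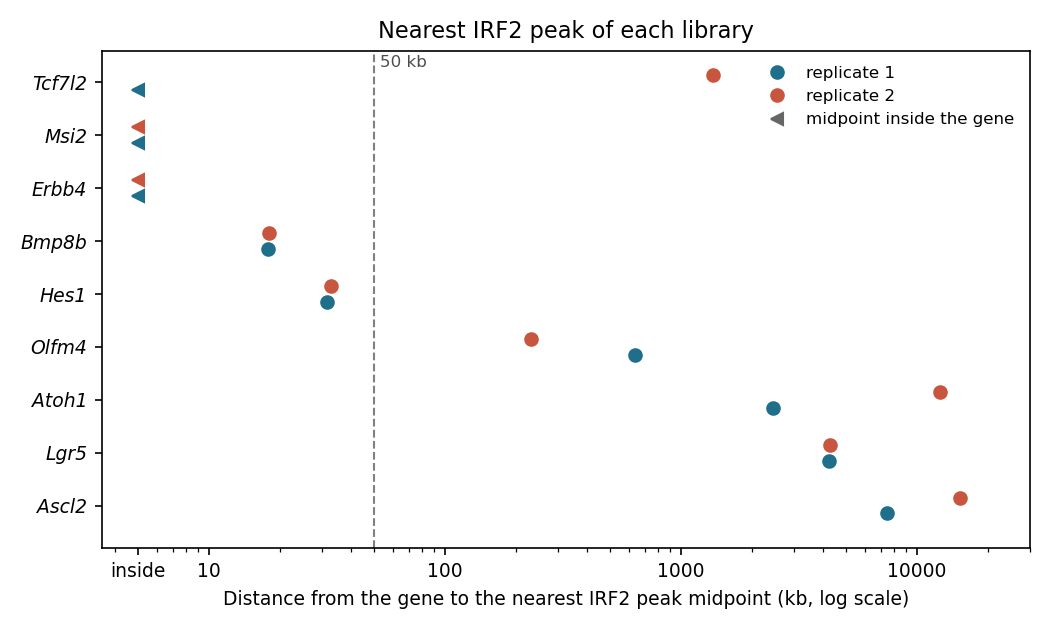
Distance from each of the 9 genes to the midpoint of its nearest IRF2 peak, in kb on a log axis, for replicate 1 (blue) and replicate 2 (red). Triangles at the left edge, off the scale, mark midpoints inside the gene, and the dashed line is the 50 kb limit. Hes1 is the farthest inside the limit (32.8 kb in replicate 2) and Olfm4 the nearest beyond it (231 kb in replicate 2).

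At Hes1, the Notch target on chromosome 16 (30065357 to 30067796), every IRF2 peak lay on the low-coordinate side, about as far from the gene in both libraries. Replicate 1 had a peak at 30032181 to 30032979 with a summit value of 80, rank 13 of 380, its midpoint 32.8 kb from the gene. The summit value is the authors' score for a peak. Its unit is not stated, so values are compared within a list only. Replicate 2 had a peak at 30032195 to 30032920 with a summit value of 21, rank 21 of 238 (8 peaks share this value). The replicate 2 interval fell wholly inside the replicate 1 interval, with 726 bp in common, and the summits were 192 bp apart. Replicate 1 had a further peak 33 bp to the gene's side of the first (30033013 to 30034254, summit value 45, rank 49), and replicate 2 had none there. Hes1 was the nearest protein-coding gene to all 3 peaks, the next being Cpn2 at 223 kb or more. The peaks lay inside the long non-coding RNA gene 9030404E10Rik (30021842 to 30039479).

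Msi2, on chromosome 11 (88339382 to 88718306), held its peaks inside the gene. The replicate 1 peak at 88692952 to 88693916 had a summit value of 49 (rank 44) and the replicate 2 peak at 88693082 to 88693871 one of 22 (rank 17, a value shared by 4 peaks). Again the replicate 2 interval lay within the replicate 1 interval (790 bp in common), with summits 160 bp apart. The gene is transcribed from its high-coordinate end, which places both midpoints 24.8 kb downstream of the closest annotated start. A lower replicate 1 peak (88692379 to 88692737, summit value 17, rank 310) stood 214 bp away, toward the 3′ end of the gene. Whether the sites fall in introns was not determined, since exons were not used.

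Erbb4, on chromosome 1 (68031884 to 69108576), is the longest of the 9 at 1077 kb, and its peaks were deep inside it, 342 kb downstream of the annotated start. The replicate 1 peak at 68765576 to 68767006 had a summit value of 89, rank 7. In replicate 2 the peak at 68765981 to 68766604 had a value of 22, rank 17. These summits were the closest of the 4 shared regions, 16 bp apart, although the replicate 2 interval covered only 43.6% of the wider replicate 1 interval. A second replicate 1 call of summit value 16 (rank 343, 68767116 to 68767498) followed after a gap of 109 bp. Erbb4 was the nearest protein-coding gene to all 3 peaks, though an end of the non-coding gene Gm51744 was closer, at 175 to 176 kb.

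Near Bmp8b, on chromosome 4 (123104308 to 123126094), lay the highest peak of replicate 1. This peak, at 123083799 to 123086357, had a summit value of 169 (rank 1) and was 2559 bp wide, against a median of 524.5 bp for the list. Replicate 2 placed a peak at 123084771 to 123085814 with a summit value of 42 (rank 4), inside the replicate 1 interval, of which it covered 40.8%, and with its summit 128 bp away. Both libraries called a second, lower peak on the side nearer the gene: 123086422 to 123086846 with a summit value of 16 (rank 343) in replicate 1, and 123085855 to 123086774 with 15 (rank 77, shared by 30 peaks) in replicate 2. These second calls were not the same interval. That of replicate 2 shared 503 bp with the main replicate 1 peak and 353 bp with the second. Its summit, at 123086048, lay inside the main replicate 1 interval. Bmp8b is read from low to high coordinates, and the high peaks were 20.1 and 19.9 kb upstream of its start. It was the nearest protein-coding gene to all 4 peaks, but 3 others (Trit1, Oxct2b and Ppie) also lie within 50 kb of Bmp8b, Trit1 with an end 30.1 kb from the highest peak. The non-coding genes Gm46868 and Gm12923 contained all 4 midpoints, with ends 2.72 to 5.82 kb away. Bmp8a, the neighbouring paralogue, had its nearest peak 226 kb off in either library, which is this same cluster of calls.

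**Figure D2:**
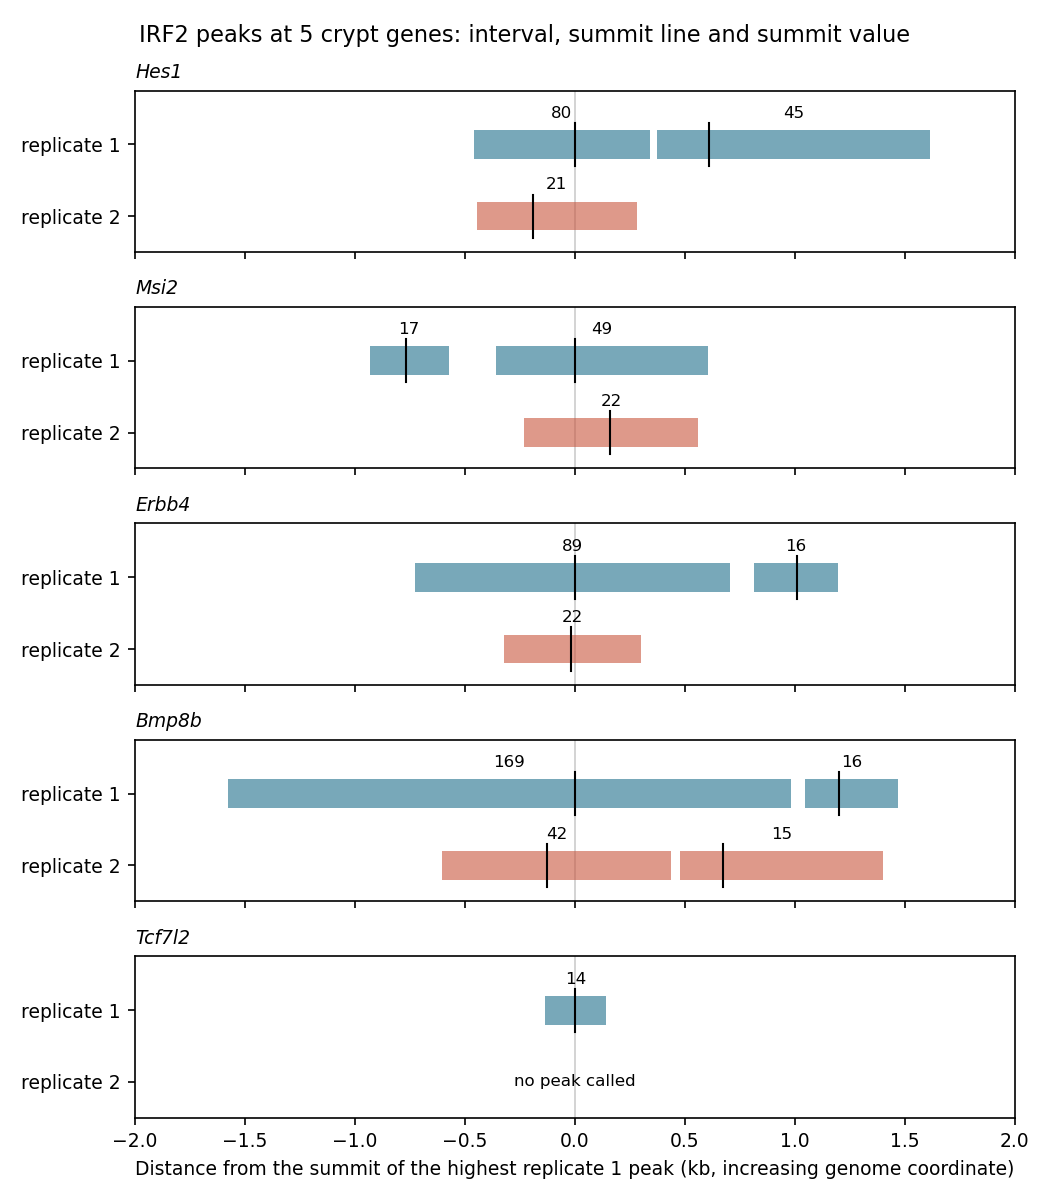
Peak intervals (bars), summits (black lines) and summit values (numbers) at the 5 genes with a peak in the window, for replicate 1 (blue) and replicate 2 (red). The horizontal axis is the distance in kb from the summit of the highest replicate 1 peak at each gene, and Tcf7l2 has no replicate 2 peak. At Hes1, Msi2, Erbb4 and Bmp8b the main summits of the libraries are 16 to 192 bp apart, and a second replicate 1 peak stands beside the first.

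Tcf7l2, on chromosome 19 (55741797 to 55933659), had a peak in replicate 1 alone. It lay at 55743978 to 55744253, inside the gene and 2.31 kb downstream of the first annotated start, with a summit value of 14. That value ranks 376 of 380 and lies 1 above the lowest of the list, 13. The closest replicate 2 peak was 1361 kb beyond the gene, with Ablim1 as its nearest protein-coding gene. One end of the non-coding gene Gm31734 was nearer to the replicate 1 peak (0.912 kb) than the end of Tcf7l2 (2.32 kb).

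Lgr5, Olfm4, Ascl2 and Atoh1 had no peak in the window in either library, and for Lgr5, Ascl2 and Atoh1 the nearest calls were megabases away. For Lgr5, on chromosome 10 (115450314 to 115587780), the nearest midpoints were 4.22 Mb away in replicate 1 (summit value 30) and 4.29 Mb away in replicate 2 (summit value 10), and Osbpl8 was the protein-coding gene nearest to both. For Olfm4, on chromosome 14 (80000302 to 80023141), they were 637 kb away in replicate 1 (13, the lowest value of the list) and 231 kb away in replicate 2 (15, nearest to Pcdh8). For Ascl2, on chromosome 7 (142966822 to 142969264), the nearest calls were 7.44 Mb (25) and 15.2 Mb (15) away, beside Clrn3 and Setd1a. For Atoh1, on chromosome 6 (64729125 to 64731245), they were 2.44 Mb (24) and 12.5 Mb (11) away, the latter at Hoxa11. Ordered by distance in replicate 1, the genes without a peak run Olfm4, Atoh1, Lgr5, Ascl2. In replicate 2 Lgr5 comes before Atoh1, so the libraries do not give 1 order.

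Within each list, the main peaks of the 4 genes with shared regions stood among the higher values, while the second replicate 1 peaks beside them, other than at Hes1, stood below the median. In replicate 1 the main peaks had values of 169 (Bmp8b), 89 (Erbb4), 80 (Hes1) and 49 (Msi2), where the list had a median of 22.5 and a range of 13 to 169. In replicate 2 they had 42, 22, 21 and 22, where the list had a median of 14 and a range of 10 to 80. Bmp8b came first of the 4 in both libraries. The other 3 differed by at most 1 unit in replicate 2, so the order Erbb4, Hes1, Msi2 of replicate 1 was not seen there. By mean rank over both lists, Bmp8b stood at place 1 of the 53 shared regions, Erbb4 at 8, Hes1 at 11 and Msi2 at 16. Hes1 was the exception among the companions, with a second replicate 1 value of 45, against 17 at Msi2 and 16 at both Erbb4 and Bmp8b.

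**Figure D3:**
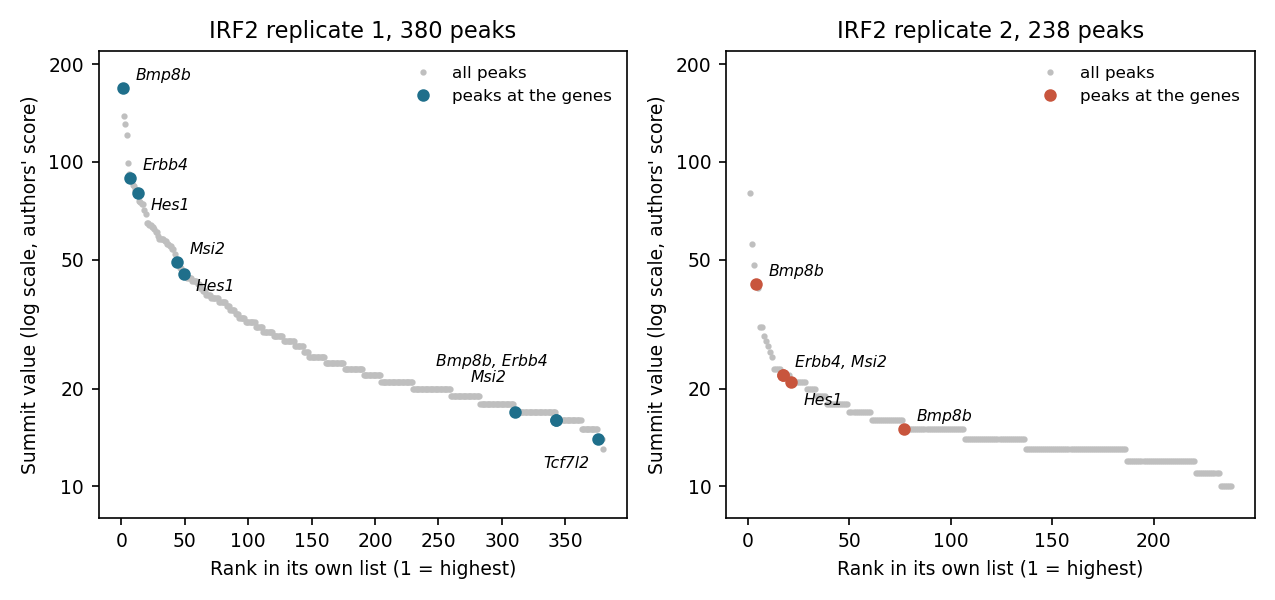
Summit value (log axis, the authors' score, unit not stated) against rank for every peak of replicate 1 (left, 380 peaks) and replicate 2 (right, 238 peaks), with the peaks at the genes in colour. Bmp8b holds rank 1 in replicate 1 and rank 4 in replicate 2, and the Tcf7l2 peak holds rank 376 of 380.

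All 4 shared regions were distal to protein-coding gene ends, at 19 kb (Bmp8b), 24.9 kb (Msi2), 32.8 kb (Hes1) and 342 kb (Erbb4). Of the 53 shared regions, 28 lay over 5 kb from such an end. Against the 24 of these at other genes, the 4 had median summit values of 84.5 against 59 in replicate 1 and of 22 against 14.5 in replicate 2. Their median width was 1198 bp against 1190 bp. The median distance between summits of the libraries was 144 bp (16 to 192) against 64 bp (0 to 608). Since the 4 were chosen with their values known, these contrasts were not tested.

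A feature that the choice of genes does not name, though it rests on the same calls, was a companion peak. In replicate 1, 8 of the 9 peaks at these genes had another peak of the list within 1 kb, as 4 pairs with gaps of 33 to 214 bp, and the Tcf7l2 peak did not. Over the whole list, 69 of 380 peaks had such a neighbour (18.2%, 95% Wilson interval 14.6 to 22.3), and 57 of the 237 peaks over 5 kb from a protein-coding gene end did (24.1%, 19.1 to 29.9). Neighbouring peaks count each other, so they are not independent and the intervals of this paragraph are too narrow. Counted by region, all 4 shared regions at these genes had a companion in replicate 1, against 5 of the 24 other distal ones. The regions were not matched on summit value, where the 4 stood higher (replicate 1 median 84.5 against 59), so the companions cannot be read as particular to these genes. In replicate 2 pairs were rare, with 6 of 238 peaks (2.52%, 1.16 to 5.39), of which the Bmp8b pair made 2. Whether a pair is 1 site split by the peak caller or separate sites cannot be told from intervals, and the difference was not tested.

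The other genes of the same pathways were examined with lists of stem cell, Notch, Wnt, BMP and ErbB genes, 124 different genes all found in the gene table. Leaving out the 9 genes, 6 of 115 had a replicate 1 peak in the window (5.22%, 95% Wilson interval 2.41 to 10.9, background 3.36%) and 2 had a replicate 2 peak (1.74%, 0.478 to 6.12, background 2.72%). The background lies inside both intervals, but the lists were chosen with these calls known, so no likeness to all genes is read from this. None of the 115 had a shared region, which allows a share of up to 2.61%, above the background of 0.644%. Hes1, Msi2, Erbb4 and Bmp8b were the 4 genes of these lists with a shared region. They were among the genes chosen with these calls known and left out of the 115, so nothing is read from the contrast.

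By list, the stem cell genes had 3 of 18 with a replicate 1 peak (16.7%, 95% Wilson interval 5.84 to 39.2) and 0 of 18 with a replicate 2 peak, which allows up to 16.7%. The replicate 1 interval lies above 3.36%, but the list was chosen with these calls known, so nothing is read from the difference. None of the 3 genes had a replicate 2 peak. Prom1, which encodes the membrane protein CD133, held a pair of peaks 36.4 and 37 kb inside its nearer end (summit values 34 and 18). Hopx, a homeodomain protein gene of reserve stem cells, had a peak 45.3 kb away (16), though Spink2 was nearer, and Aqp4, a water channel gene, had one 13.9 kb away (15). In the Notch list 1 of 25 had a peak, in replicate 1 (4%, 0.71 to 19.5). Numb, an inhibitor of Notch, had a replicate 1 pair 11 and 11.6 kb outside the gene (25 and 18). The BMP list had 2 of 26, both in replicate 1 (7.69%, 2.14 to 24.1). Smad1, a transducer of BMP signals, had a peak 28.5 kb inside an end (23). The inhibitory Smad6 had one 881 bp inside an end (18). The Wnt list had 1 of 30, in replicate 2 (3.33%, 0.591 to 16.7), at Rnf43, a ubiquitin ligase that removes Wnt receptors (14). That peak was 46.3 kb from Rnf43 and 0.43 kb from Hsf5. The ErbB list had 1 of 18, in replicate 2 (5.56%, 0.988 to 25.8), at the adaptor gene Grb2 (18). There the peak was 39.8 kb away and only 136 bp from an end of Mrps7. The intervals of the Notch, BMP, Wnt and ErbB lists each hold the background of their library, 3.36% or 2.72%.

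**Figure D4:**
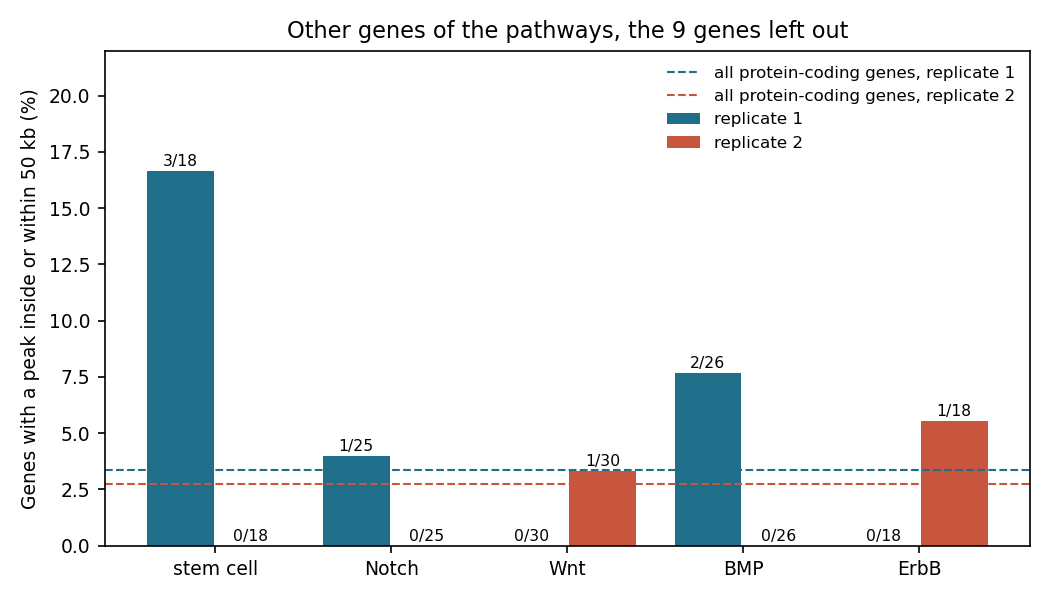
Share of genes in each pathway list, without the 9 genes described, that have an IRF2 peak inside or within 50 kb, in percent, for replicate 1 (blue) and replicate 2 (red). Counts stand above the bars and the dashed lines are the shares over all protein-coding genes, 3.36% and 2.72%. Every bar rests on 0 to 3 genes.

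Relatives of Bmp8b, Msi2, Erbb4, Tcf7l2, Hes1 and Lgr5 were checked in the same window. A peak was found at 0 of 10 in replicate 1 and 0 of 10 in replicate 2. Each count allows a share of up to 30%, above the background of its library, 3.36% and 2.72%. They were Bmp8a, Msi1, Egfr, Erbb2, Erbb3, Tcf7, Tcf7l1, Lef1, Hes5 and Lgr4. All 10 are among the 115 list genes already counted above, so their count is not a separate check. Their nearest midpoints ranged from 226 kb (Bmp8a, both libraries) to 13.6 Mb (Tcf7l1, replicate 2). Hes5, a Notch target like Hes1, had its nearest peaks at 325 kb (summit value 24) and 273 kb (19). Erbb2 had them at 1803 kb (74) and 481 kb (12).

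Across the lists, 91 of the 124 genes had a promoter window, and 1 of 120 windows held the full IRF motif (0.833%, 95% Wilson interval 0.147 to 4.57, against 3.44% of all windows). It belonged to Numb, at a start inside the gene, and is printed because it is the single match in these pathways. The 60 bases (chr12:83876824-83876883, minus strand, 5′ to 3′) carry the motif in capitals, beginning 46 bases before that start. No peak of either library covered this window.
Numb: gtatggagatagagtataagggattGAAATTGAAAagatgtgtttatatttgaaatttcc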

How the data were processed

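The submitters' processing notes name mm10, BWA 0.7.12 and MACS. Not given in the sources used here are the MACS version, thresholds, filters and read depth. Each library has its own track, per the file headers. The deposited files give intervals and, per summit, the authors' score, of no stated unit. The replicate 2 file repeats the 380 replicate 1 summits line for line as a rep2 track, which was counted once.

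Intervals were written 1-based. Genes were RefSeq protein-coding genes of GRCm38.p6, chromosomes 1 to 19, X and Y. Peaks overlapping by at least 1 bp formed shared regions. Motifs were searched in RefSeq promoter windows on both strands. Python 3.11.15, pandas 2.3.3 and numpy 2.4.6 were used, and the counting steps were tested on simulated data. The genes and lists were chosen with earlier results of these data known. Named genes were the 9 genes, the protein-coding gene nearest to each of their peaks, and list genes with a peak in both libraries or up to 5 with the highest summit values. Relatives and companion calls were chosen later. No difference was tested, since the 2 libraries form 1 group and the choice of genes used the peak calls. Wilson intervals and limits for a count of 0 cover counting error only. The motif search under peaks, planned with a genome sequence, was not run.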

Additional observations from a re-analysis of the deposited data

How the results depend on the processing

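With a window of 5 kb, 3 genes kept a replicate 1 peak (Erbb4, Msi2 and Tcf7l2, with 5 peaks) and 2 a replicate 2 peak and a shared region (Erbb4 and Msi2, with 2 peaks in replicate 2). The stem cell list, the 9 genes included, then had 2 genes with a peak of either library, the Notch list 0, the Wnt list 1 and the ErbB list 1. With 25 kb, Hes1 dropped out, and the Notch, Wnt and ErbB lists had 1 each. A window of 100 kb, summits or any base of the peak in place of midpoints, and joining peaks within 500 bp gave the same genes of the 9. At 100 kb the BMP list had 4 and the ErbB list 3. The higher-scored 50% of each list left 5 replicate 1 peaks at the genes, without the Tcf7l2 peak, and 2 stem cell and 1 Wnt genes. With a reciprocal overlap of 50%, 2 shared regions were left, at Hes1 and Msi2. Bmp8b and Erbb4 fell short, because the wider replicate 1 peaks were covered to 40.8 and 43.6%. With 1 library left out, a setting added for the lists after seeing the data, the counts ran from 1 to 4 (stem cell, 4 with both libraries), 1 to 2 (Notch, 2), 1 to 1 (Wnt, 2), 1 to 3 (BMP, 3) and 1 to 2 (ErbB, 2). The Wnt count fell to 1 without either library. Among all annotated genes, the named gene had the nearest end for 3 of 14 peaks, against 14 of 14 among protein-coding genes. The shorter motif was held by 2 genes against 0. No paired analysis was possible because only IRF2 immunoprecipitates, 1 group, entered the counts.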
